A study of Mus musculus with 18 samples.

Results

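The interaction of genotype with Wy14,643 (Wy), a synthetic agonist of the nuclear receptor PPARA, was measured in mouse liver. It was taken from 12 libraries of messenger RNA, of 18 in the series, grouped by their labels. The 4 groups were Ppara-/- mice (KO) on the Wy diet, KO mice on the control diet, Ppara+/+ mice (WT) on the Wy diet and WT mice on the control diet, with 3 libraries each. All mice were 8 weeks old, on a background of C57BL/6 mixed with SV129, and were on their diet for 48 h, with 0.1% Wy in the chow of the treated groups. Their sex is not given in the sources used here. Each library pooled 3 or 4 livers in KO Wy, 4 or 5 in KO control, 4 or 5 in WT Wy and 5 in WT control, so that standard errors and p-values rest on the spread between pools. The interaction is the log2 response to Wy in KO minus the log2 response to Wy in WT. A negative value means that the response was lower in KO. It was taken for the 31099 loci that carry a gene identifier, of 52463 in the files, and 14241 of these had enough counts to be tested.

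PPARA is activated by fatty acids and by fibrate drugs, pairs with the retinoid X receptor and binds direct repeats of a short half-site with 1 base between them. In hepatocytes its known targets take up, activate and oxidise fatty acids in peroxisomes, mitochondria and the endoplasmic reticulum, and make ketone bodies. In rodents its agonists also enlarge the liver, multiply peroxisomes, start hepatocyte division and lower many transcripts of secreted proteins. A comparison of the drug's effect in null and wild type livers asks which responses need the receptor.

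Total counts per library were 74.5 to 150.7 M, or 36.3 to 48.0 M without 23 loci of the major urinary proteins (Mup). The Mup loci took 67.4 ± 3.65% of counts in KO Wy, 58.7 ± 2.61% in KO control, 49.5 ± 3.26% in WT Wy and 67.0 ± 2.46% in WT control (SD, n = 3 each). Values are CPM (counts per 1 M counts) on library sizes scaled by TMM, a trimmed mean of log ratios between libraries. With library totals as sizes the median interaction of all genes shifted by -1.16. Ppara itself (mm10 chromosome 15, 85735564 to 85806851, 13 exons in the files) had 1668, 1601 and 1162 counts in KO Wy, 1484, 1344 and 1770 in KO control, 8974, 7226 and 8305 in WT Wy, and 5443, 6441 and 5214 in WT control. Every KO library lay below every WT library, and the counts left in KO do not tell whether receptor was made. The interaction for Ppara was -0.24 ± 0.25 (SE, adjusted p = 0.52). The summed level of 8 hepatocyte markers, albumin among them, was 50000 to 51100 CPM in KO Wy, 52900 to 60800 CPM in KO control, 22900 to 27200 CPM in WT Wy and 53400 to 55200 CPM in WT control. Xist had 308 counts in WT Wy 3 and at most 1 in each of the other 11 libraries. Without WT Wy 3 the interaction was called for 1466 genes higher and 1952 lower, and of the genes named here Plin5, Tef and Ethe1 lost the call of their interaction, and Dbp, Clock, Gldc and Serpina3g that of their response in KO.

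The response to Wy differed between the genotypes for 4001 of 14241 genes at an adjusted p under 0.05 (28.1%). The interaction was higher in KO for 1994 genes (14%) and lower for 2007 (14.1%), and it passed 2-fold for 844 of the higher and 737 of the lower genes. Within KO livers Wy changed 34 genes (0.239%), 19 higher and 15 lower. Within WT livers it changed 5583 genes (39.2%), 2875 higher (20.2%) and 2708 lower (19%). From the 5th to the 95th percentile of genes the fitted response ran from -0.46 to 0.57 in KO and from -1.17 to 1.27 in WT. The interaction shares its libraries with both of these contrasts, so their values are set side by side below and are not independent of each other. Scaled by library totals, where the median moves as above, 203 genes were called higher and 9860 lower.

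**Figure D1:**
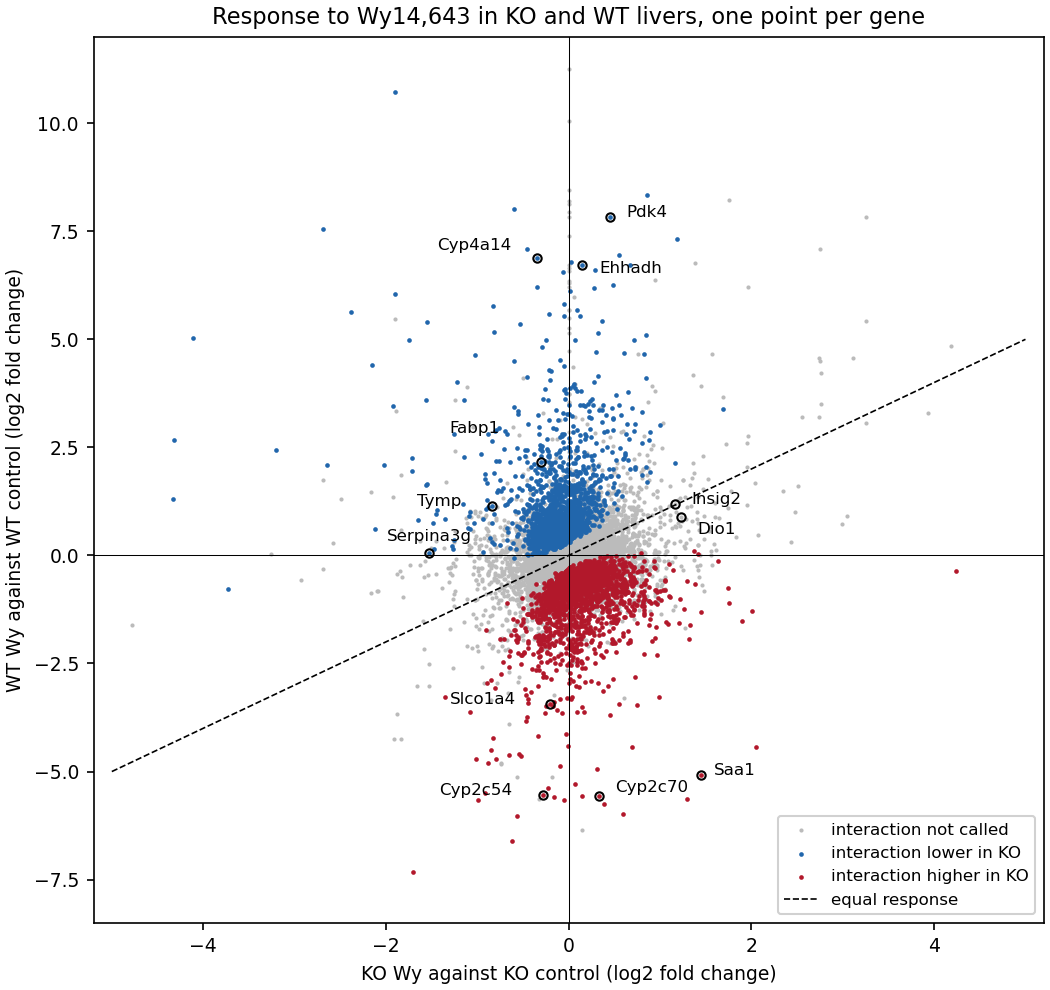
Fitted log2 fold change of each of 14241 tested genes with Wy in KO livers (horizontal axis) and in WT livers (vertical axis), with colour for genes whose interaction was called. Most called genes lie along the vertical axis, such as Pdk4 at 0.45 in KO and 7.82 in WT, while Insig2 lies near the line of equal response at 1.16 in KO and 1.2 in WT.

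The liver fatty acid binding protein Fabp1 carries fatty acids in the cytosol of hepatocytes and is a known target of PPARA. It stood at 815, 794 and 743 CPM in KO Wy, 992, 1053 and 840 CPM in KO control, 7668, 8039 and 8858 CPM in WT Wy, and 1965, 1693 and 1848 CPM in WT control. WT Wy lay above all other libraries, both KO groups lay below WT control, and KO Wy lay just below KO control. Wy changed Fabp1 by 2.16 ± 0.14 in WT (SE, adjusted p = 7e-10), its fitted value in KO was -0.30 ± 0.14 (adjusted p = 0.34), and the interaction was -2.45 ± 0.19 (adjusted p = 2.5e-08). Its promoter is shown because it is the only one, among the named genes searched, that holds 2 matches to a loose half-site pattern with 1 base between them. Its 2 half-sites are not identical. The search took AGGNCANAGGNCA on both strands, in RefSeq windows (GRCm38.p6) of 250 bases before to 50 bases after a gene's start, for 48 named genes, of which 33 had a window. The window lies at chr6:71199629-71199928 on the + strand, and capitals mark the repeat, which begins at position -67 from the start and reads on the opposite strand.

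Fabp1 promoter: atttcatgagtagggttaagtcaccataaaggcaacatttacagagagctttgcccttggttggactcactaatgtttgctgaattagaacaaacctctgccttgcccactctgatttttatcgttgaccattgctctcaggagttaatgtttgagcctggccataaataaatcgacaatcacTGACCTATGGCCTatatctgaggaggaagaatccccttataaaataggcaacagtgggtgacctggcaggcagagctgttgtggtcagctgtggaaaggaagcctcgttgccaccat

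The same motif is in 125 of 32851 windows of the table (0.381%). It is in 2 of 1531 tested genes with a lower interaction (0.131%), in 10 of 1511 with a higher one (0.662%) and in 30 of 7743 not called (0.387%). Among interactions of 4-fold or more it is in 1 of 186 lower (0.538%) and in 0 of 168 higher. The match in Fabp1 is a description of these letters, and the absence of a match in other windows says nothing about binding elsewhere.

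Genes of peroxisomal fatty acid oxidation had a lower interaction in 23 of 30 tested members and a higher one in 3. That was 86.7%, against 28.1% over all genes tested, and the median was -1.43, against 0.05. None of the 30 was called in KO, where 0.239% of all genes were called and the median of the list was -0.03. In WT 24 rose and 4 fell, where 39.2% of all genes were called and the median of the list was 1.46. Ehhadh, the bifunctional enzyme of the spiral (chromosome 16, 21761285 to 21787844), stood at 54.3, 60.2 and 52.7 CPM in KO Wy and 44.9, 50.2 and 55.7 CPM in KO control. In WT it stood at 7824, 7972 and 7694 CPM with Wy and 64.9, 78.2 and 78.8 CPM without. The KO groups overlapped and the WT groups were far apart, with an interaction of -6.58 ± 0.19 (SE, adjusted p = 7.2e-14). The thiolase Acaa1b, which ends the spiral, had an interaction of -3.72 ± 0.14. The peroxisomal membrane protein Pex11a, known for its part in peroxisome division, had -2.61 ± 0.12 (0.18 in KO, 2.80 in WT). The thioesterases Acot3 (-5.11 ± 0.24), Acot4 (-3.64 ± 0.14) and Acot8 (-2.29 ± 0.15) showed the same sign. Members did not all move together. Phyh, which starts the removal of phytanic acid, fell in WT by 0.80 and had an interaction of 0.70 ± 0.13 (adjusted p = 0.00038, and -0.47 when scaled by library totals). Catalase (Cat) stood at 815, 983 and 781 CPM in KO Wy, 896, 976 and 1024 CPM in KO control, 1245, 1206 and 1208 CPM in WT Wy, and 1129, 1350 and 1288 CPM in WT control, and was not called in any of the 3 tests.

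Mitochondrial beta-oxidation had a lower interaction in 21 of 22 members and a higher one in none (95.5%, against 28.1% over all genes). The median was -1.78, with -0.08 in KO and 1.79 in WT. The exception was the hydratase Echs1, with an interaction of -0.17 ± 0.14 (adjusted p = 0.40). The size differed widely among members of the pathway. Cpt1a, the liver enzyme that commits fatty acids to import, had an interaction of -0.73 ± 0.16 (adjusted p = 0.0019), while Cpt1b, its muscle-type counterpart, had -3.87 ± 0.16. Cpt1b stood at 4.62, 4.18 and 5.79 CPM in KO Wy, 4.37, 4.54 and 5.16 CPM in KO control, 113, 106 and 108 CPM in WT Wy, and 7.43, 7.16 and 6.98 CPM in WT control. Both KO groups lay below WT control and overlapped each other. The carnitine acylcarnitine carrier Slc25a20 had -1.88 ± 0.11, carnitine acetyltransferase (Crat) -3.83 ± 0.22, the medium-chain dehydrogenase Acadm -2.32 ± 0.12, and the trifunctional protein subunits Hadha -2.12 ± 0.11 and Hadhb -2.16 ± 0.10. The mitochondrial thioesterase Acot2, at -6.74 ± 0.39, stood at 7.32, 7.11 and 6.96 CPM in KO Wy, 6.45, 5.91 and 8.55 CPM in KO control, 503, 666 and 549 CPM in WT Wy, and 6.40, 5.24 and 3.98 CPM in WT control. WT Wy alone stood apart there.

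The cytochromes of the Cyp4a family hydroxylate the far end of fatty acids in the endoplasmic reticulum. Of 10 members of that pathway 8 had a lower and 2 a higher interaction (median -2.51; -0.07 in KO and 2.5 in WT). Cyp4a14 stood at 0.0976, 0.122 and 0.130 CPM in KO Wy, 0.275, 0.123 and 0.0309 CPM in KO control, 375, 372 and 333 CPM in WT Wy, and 1.62, 4.15 and 3.47 CPM in WT control, with an interaction of -7.23 ± 0.74. Cyp4a10 (-6.04 ± 0.57), Cyp4a31 (-6.39 ± 0.53) and Cyp4a30b (-6.12 ± 1.13) are close paralogs, and the split of reads among them is uncertain. The locus of Cyp4a14 (chromosome 4, 115486200 to 115496167) also lies within that of Cyp4a30b (115452552 to 115499076) on the other strand. All 4 lay below 3 CPM in every KO library. The aldehyde dehydrogenase Aldh3a2, which takes the fatty aldehydes onward, had an interaction of -3.32 ± 0.15. Cyp4f14, a hydroxylase of the same superfamily with leukotriene substrates, had the opposite sign. It stood at 121, 132 and 117 CPM in KO Wy, 137, 140 and 135 CPM in KO control, 8.98, 8.19 and 9.79 CPM in WT Wy, and 85.9, 94.4 and 101 CPM in WT control, and WT Wy was below all other libraries (interaction 3.23 ± 0.18, adjusted p = 2.7e-10).

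All 4 ketogenic genes had a lower interaction, where 28.1% of all genes were called. The median was -1.38, with -0.22 in KO and 1.24 in WT. The thiolase Acat1 stood at 111, 113 and 118 CPM in KO Wy, 117, 128 and 130 CPM in KO control, 404, 424 and 461 CPM in WT Wy, and 190, 178 and 183 CPM in WT control. WT Wy lay above all other libraries and both KO groups lay below WT control, with an interaction of -1.36 ± 0.14 (adjusted p = 9.2e-07). Bdh1, the dehydrogenase that makes beta-hydroxybutyrate, had -0.94 ± 0.17 (adjusted p = 0.00044).

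Fatty acid uptake and storage had a lower interaction in 19 of 24 members and a higher one in none (79.2%, against 28.1% over all genes). The median was -2.06, or -1.94 without Cidea, which had 0 counts in KO libraries. Median responses were 0.10 in KO and 2.05 in WT. The lipid droplet protein Cidec stood at 0.169, 0.155 and 0.330 CPM in KO Wy, 0.156, 0.236 and 0.247 CPM in KO control, 35.5, 41.6 and 37.4 CPM in WT Wy, and 0.576, 0.565 and 0.510 CPM in WT control (interaction -6.10 ± 0.34). WT control lay above both KO groups, which overlapped. The transporter Slc27a1 had an interaction of -5.86 ± 0.22, the thioesterase Acot1 -5.90 ± 0.23, the translocase Cd36 -4.08 ± 0.30, the droplet coat protein Plin2 -2.99 ± 0.20 and monoglyceride lipase (Mgll) -2.82 ± 0.12. Plin5, which ties droplets to mitochondria, stood at 6.22, 2.83 and 3.95 CPM in KO Wy, 1.55, 2.70 and 1.62 CPM in KO control, 85.9, 87.0 and 100 CPM in WT Wy, and 22.5, 20.4 and 18.6 CPM in WT control. Its fitted change of 1.16 ± 0.24 in KO missed the threshold (adjusted p = 0.050), and its interaction of -1.00 ± 0.32 (adjusted p = 0.029) did not hold without KO Wy 2 or 3, KO control 2, WT Wy 3, or WT control 2 or 3, with adjusted p up to 0.12. Angptl4, a secreted inhibitor of lipoprotein lipase and a textbook target, had 46.9, 36.6 and 40.8 CPM in KO Wy, 30.2, 42.6 and 39.5 CPM in KO control, 83.6, 81.8 and 83.3 CPM in WT Wy, and 63.9, 58.3 and 71.5 CPM in WT control. It rose in WT by 0.36 ± 0.13 (adjusted p = 0.033), and its interaction was -0.21 ± 0.18 (adjusted p = 0.42).

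Pdk4, a kinase that holds back pyruvate oxidation (chromosome 6, 5483351 to 5496309), stood at 6.10, 4.20 and 3.31 CPM in KO Wy, 2.83, 3.83 and 3.34 CPM in KO control, 221, 207 and 214 CPM in WT Wy, and 1.01, 0.883 and 0.950 CPM in WT control. WT Wy was the highest group and WT control the lowest, below all KO libraries. The interaction was -7.36 ± 0.36 (adjusted p = 3.8e-11), with 0.45 ± 0.23 in KO and 7.82 ± 0.30 in WT. Fbp2, a fructose bisphosphatase of muscle, had 0, 0 and 2 counts in KO Wy, 1, 0 and 0 in KO control, 957, 917 and 959 in WT Wy, and 2, 2 and 3 in WT control. These counts are too low in 3 of the groups for a fold, and its call (adjusted p = 0.037) did not hold without KO control 1 or WT control 2, with adjusted p up to 0.97. The hormone Fgf21, another textbook target, had 0 counts in all 6 KO libraries, 549, 416 and 562 in WT Wy, and 82, 70 and 91 in WT control, so no interaction can be given for it. Over 23 genes of glucose handling the interaction was higher in 7 and lower in 5 (52.2%, against 28.1% over all genes). The median was 0.25, and -0.91 scaled by library totals. Liver pyruvate kinase (Pklr) had 1.5 ± 0.23 and pyruvate carboxylase (Pcx) -0.73 ± 0.15.

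Other genes stood among the 15 most negative interactions. They included the zinc transporter Slc39a5 (-6.31 ± 1.2), the matrix protein Spon2 (-6.59 ± 0.45), the laminin subunit Lamb3 (-5.80 ± 0.22) and the thioesterase Acot5 (-6.61 ± 1.14). Lamb3 stood at 1.74, 1.65 and 1.92 CPM in KO Wy, 2.22, 2.11 and 1.80 CPM in KO control, 59.6, 76.0 and 75.7 CPM in WT Wy, and 1.49, 1.49 and 1.39 CPM in WT control. WT Wy alone stood apart. The laminin subunit Lama3, which pairs with that chain in 1 laminin, was among the 15 most positive at 4.13 ± 0.40. It stood at 7.69, 8.80 and 7.34 CPM in KO Wy, 5.84, 6.48 and 5.17 CPM in KO control, 0.141, 0.0481 and 0.209 CPM in WT Wy, and 1.78, 1.65 and 1.83 CPM in WT control. The pantetheinase Vnn1 had -4.82 ± 0.61. Gm15441, at -5.06 ± 0.16, overlaps Txnip, a locus at 0 counts throughout that could not be read, so the value of Gm15441 is uncertain.

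**Figure D2:**
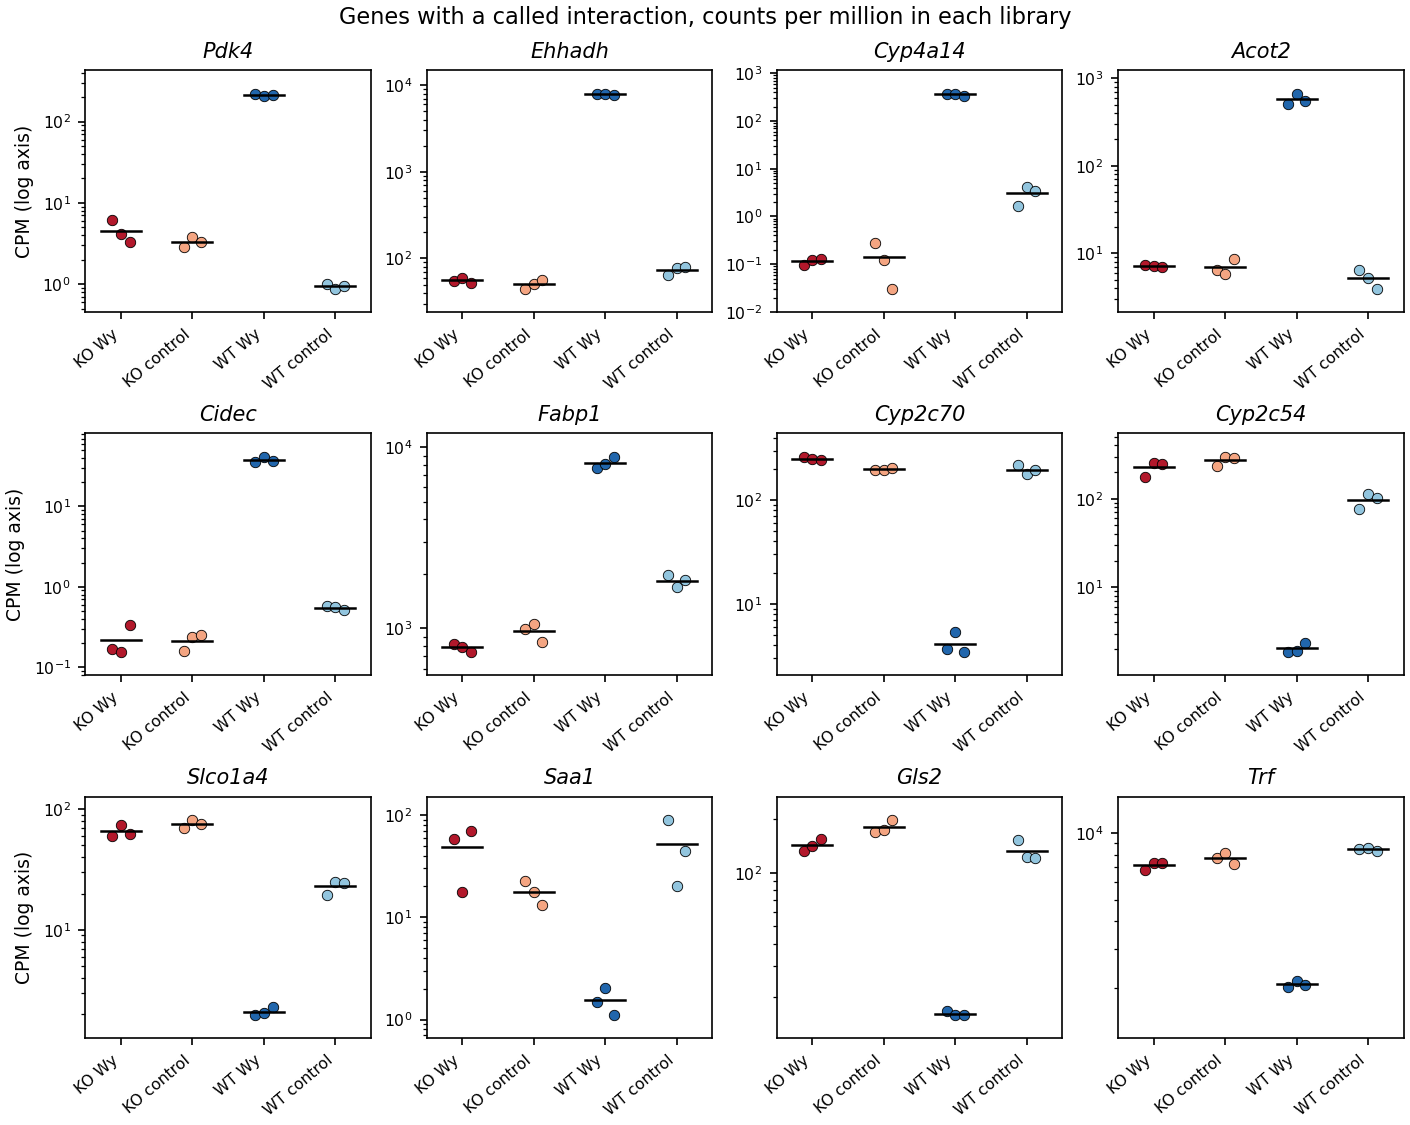
CPM (log axis) of 12 genes with a called interaction in each of the 3 libraries of KO Wy, KO control, WT Wy and WT control, with a bar at the group mean. In each panel WT Wy stands apart from the other 3 groups, above them for Pdk4 (221, 207 and 214 CPM) and below them for Cyp2c70 (3.66, 5.30 and 3.45 CPM).

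Lipogenesis genes did not all move together. The interaction was lower in 9 of 18 members and higher in 2 (61.1%, against 28.1% over all genes). The median was -0.57, with -0.04 in KO and 0.62 in WT. The lower ones included the desaturases Scd1 (-2.29 ± 0.49) and Fads2 (-1.71 ± 0.15), the elongase Elovl5 (-2.16 ± 0.15), malic enzyme Me1 (-2.45 ± 0.22) and the mitochondrial carboxylase Acacb (-2.70 ± 0.30). Fatty acid synthase (Fasn) stood at 34.6, 50.3 and 20.6 CPM in KO Wy, 30.8, 23.1 and 30.9 CPM in KO control, 62.3, 57.2 and 43.3 CPM in WT Wy, and 24.7, 48.5 and 36.7 CPM in WT control. The groups of each genotype overlapped, and the interaction of -0.25 ± 0.37 was not called (adjusted p = 0.65). Thrsp, a lipogenic regulator of liver, had the opposite sign, with 157, 169 and 172 CPM in KO Wy, 180, 152 and 151 CPM in KO control, 19.5, 15.2 and 19.6 CPM in WT Wy, and 208, 164 and 156 CPM in WT control (interaction 3.33 ± 0.26). Of 25 cholesterol synthesis genes 4 were higher and 2 lower (24%, against 28.1% over all genes; median -0.05). Hmgcs1, a synthase of that pathway, had an interaction of -1.51 ± 0.48 (adjusted p = 0.027), and this call was lost without KO Wy 1 or 3, KO control 1, WT Wy 1, or WT control 1 or 3, with adjusted p up to 0.066. Of 16 lipoprotein genes 4 were higher and 2 lower (37.5%, against 28.1% over all genes, median 0.22, and -0.96 scaled by library totals). The transfer proteins Pltp (-2.43 ± 0.21) and Mttp (-1.53 ± 0.11) were the 2 lower ones, and the lipase inhibitor Apoc3 was higher at 1.19 ± 0.19.

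Bile acid synthesis and transport was higher in 12 of 21 members and lower in 4 (76.2%, against 28.1% over all genes). The median interaction was 0.84, and -0.32 scaled by library totals. Median responses were 0.03 in KO and -0.98 in WT. Cyp2c70, the murine enzyme that makes muricholic acids (chromosome 19, 40153353 to 40187333), stood at 262, 248 and 242 CPM in KO Wy, 197, 195 and 204 CPM in KO control, 3.66, 5.30 and 3.45 CPM in WT Wy, and 218, 179 and 194 CPM in WT control. WT Wy lay far below all others, and the interaction was 5.91 ± 0.29 (adjusted p = 3.8e-11). The reductase Akr1d1 had 3.80 ± 0.21, the uptake transporters Slco1a4 3.24 ± 0.20 and Slco1b2 1.21 ± 0.12, and the sterol hydroxylase Cyp27a1 1.21 ± 0.10. Cyp7a1, the rate-limiting enzyme, stood at 81.0, 51.2 and 35.6 CPM in KO Wy, 52.7, 42.7 and 52.5 CPM in KO control, 75.9, 45.0 and 53.3 CPM in WT Wy, and 70.9, 76.6 and 63.2 CPM in WT control. The pools overlapped, and the interaction of 0.46 ± 0.54 was not called (adjusted p = 0.57). The organic anion transporter Slc22a7 had 4.39 ± 0.38.

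Of 20 xenobiotic genes that are typical targets of the receptors CAR and PXR, 12 were higher and 2 lower (median 1.78; -0.20 in KO and -2.00 in WT). The cytochromes Cyp2c50 (5.42 ± 0.25), Cyp2c54 (5.28 ± 0.28), Cyp2c37 (5.14 ± 0.27) and Cyp2c29 (2.98 ± 0.24) led, and reads may be split among these near copies. Cyp2c54 stood at 177, 251 and 249 CPM in KO Wy, 235, 298 and 286 CPM in KO control, 1.87, 1.92 and 2.36 CPM in WT Wy, and 75.9, 112 and 102 CPM in WT control. WT Wy lay far below the rest, and both KO groups lay above WT control. The main drug-metabolising Cyp3a11 had 1.62 ± 0.22 and the carboxylesterases Ces2a 2.02 ± 0.15 and Ces1c 4.09 ± 0.15. Cyp2b10, the usual readout of CAR, was at 39.1, 36.0 and 30.8 CPM in KO Wy, 5.89, 19.7 and 28.6 CPM in KO control, 9.41, 7.46 and 11.4 CPM in WT Wy, and 11.5, 12.2 and 10.4 CPM in WT control. KO Wy lay above KO control, whose own libraries spread widely, and neither the response in KO (0.97 ± 0.36, adjusted p = 0.24) nor the interaction (1.24 ± 0.50, adjusted p = 0.075) was called.

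Acute phase and complement genes were higher in 15 of 24 members and lower in 1 (66.7%, against 28.1% over all genes). The median was 1.18, with 0.03 in KO and -1.11 in WT. Serum amyloid Saa1 stood at 58.9, 17.6 and 69.4 CPM in KO Wy, 22.6, 17.6 and 13.2 CPM in KO control, 1.5, 2.02 and 1.11 CPM in WT Wy, and 89.4, 20.3 and 44.7 CPM in WT control. All 3 WT Wy pools were below all others, the pools of KO Wy and of WT control differed widely, and the interaction was 6.51 ± 1.55 (adjusted p = 0.0041). Saa2 (6.94 ± 1.89) and the glycoprotein Orm3 (5.98 ± 1.46) had errors as wide. The complement protein C9 (2.63 ± 0.22), the lectin Mbl2 (2.22 ± 0.18) and the inter-alpha-inhibitor chain Itih4 (2.19 ± 0.21) were tighter. The apolipoproteins L Apol9a (5.72 ± 0.34) and Apol9b (5.35 ± 0.27), near copies of each other, fell in WT below 1 CPM.

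Amino acid and urea cycle genes were higher in 12 of 19 members and lower in none (63.2%, against 28.1% over all genes). The median interaction was 0.81, and -0.37 scaled by library totals. Median responses were 0.05 in KO and -1.00 in WT. Glutaminase Gls2 stood at 133, 142 and 155 CPM in KO Wy, 170, 175 and 198 CPM in KO control, 16.7, 15.9 and 15.9 CPM in WT Wy, and 152, 122 and 121 CPM in WT control (interaction 2.69 ± 0.15). The urea cycle enzymes Ass1 (2.33 ± 0.16) and Otc (1.93 ± 0.14) and proline dehydrogenase Prodh (2.21 ± 0.18) were of like size. The periportal list shares members with this one, and all 8 of its genes were higher (median 1.86; 0.02 in KO and -1.81 in WT). Of 8 pericentral genes 3 were higher and 2 lower (62.5%, against 28.1% over all genes, median 0.41, and -0.74 scaled by library totals). Cyp1a2 had 2.52 ± 0.18, and glutamine synthetase (Glul), the narrowest pericentral marker, had -0.01 ± 0.16 (adjusted p = 0.99).

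Genes of hepatocyte identity were higher in 5 of 8 and lower in none (62.5%, against 28.1% over all genes). The median was 0.83, and -0.33 scaled by library totals. Transferrin (Trf) had an interaction of 1.91 ± 0.13, the protease inhibitor Serpina1a 1.58 ± 0.15 and Alb 0.71 ± 0.19 (adjusted p = 0.0084, and -0.46 scaled by library totals). Hnf4a stood at 165, 184 and 147 CPM in KO Wy, 151, 146 and 148 CPM in KO control, 157, 169 and 167 CPM in WT Wy, and 139, 157 and 148 CPM in WT control, with an interaction of 0.00 ± 0.17 (adjusted p = 1.0). Of 15 hepatokines 7 were higher and 2 lower (60.0%, median 0.42, or 0.45 without Fgf21, and -0.76 scaled by library totals). Among the higher were Igf1 at 1.26 ± 0.14 and the fetuins Ahsg at 1.26 ± 0.14 and Fetub at 1.26 ± 0.12. The lower were Inhbe at -1.56 ± 0.26 and Igfbp2 at -1.11 ± 0.24. Among 16 nuclear receptors and partners 4 were higher and 3 lower (43.8%, against 28.1% over all genes), with Esr1 at 2.09 ± 0.28. Of 10 male-biased genes 6 were higher and 2 lower (80.0%), with the steroid dehydrogenase Hsd3b5 at 3.96 ± 0.51. Of 13 female-biased genes 2 were higher and 2 lower (30.8%). The median interactions of these lists, in this order, were 0.15, 0.79 and 0.04. Scaled by library totals they were -1.0, -0.37 and -1.06. The female-biased median also changed sign under other alternatives.

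Of 31 cell cycle genes 8 were lower and 1 higher (29.0%, against 28.1% over all genes; median -0.64; 0.03 in KO and 0.63 in WT). Of the 8, 6 were subunits of the MCM helicase, among them Mcm6 (-3.84 ± 0.53), Mcm5 (-3.00 ± 0.60) and Mcm7 (-1.55 ± 0.28), and another was the repressor E2f8 (-1.92 ± 0.22). E2f8 stood at 0.435, 0.410 and 0.425 CPM in KO Wy, 0.275, 0.277 and 0.309 CPM in KO control, 7.81, 7.95 and 6.27 CPM in WT Wy, and 1.22, 1.46 and 1.26 CPM in WT control. The KO groups did not overlap, but the fitted 0.56 ± 0.18 was not called (adjusted p = 0.17). The 1 higher gene was the replication factor Mcm10, at 1.07 ± 0.18 (-0.06 in KO, -1.13 in WT; interaction -0.11 scaled by library totals). Genes of mitosis in the list were not called for the interaction. Some had few counts and wide errors, such as Plk1 (-1.22 ± 0.82) and Bub1 (-1.96 ± 1.18), with group means of at most 0.159 and 0.0766 CPM. Top2a (1.48), Cdk1 (0.98) and Birc5 (1.0) were called higher in WT and not in KO, and the other mitotic genes in neither genotype. The interactions of Top2a, Cdk1 and Birc5 were -0.97 ± 0.48, -0.80 ± 0.54 and -0.94 ± 0.52, so a difference may not have been detectable. Of 18 NRF2 targets 6 were higher and 7 lower (72.2%), with Gsta4 at 1.60 ± 0.16 and Ephx1 at -0.80 ± 0.12. The median of the NRF2 list was 0.03, changed sign under several alternatives and was -1.11 scaled by library totals. Of 16 stress genes 6 were higher and 3 lower (56.2%, median 0.34, and -0.81 scaled by library totals). The chaperone Hspa1b had -3.71 ± 0.77, and Creb3l3, a liver partner of PPARA, had -0.64 ± 0.12 (0.07 in KO, 0.72 in WT).

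Kupffer cell markers were higher in 10 of 11 members (90.9%, against 28.1% over all genes). The median interaction was 1.02, and -0.14 scaled by library totals. Median responses were 0.34 in KO and -0.68 in WT. The lectin Clec4f, a defining marker, stood at 31.6, 28.1 and 36.7 CPM in KO Wy, 26.2, 28.5 and 24 CPM in KO control, 12.7, 11.5 and 12 CPM in WT Wy, and 22.9, 21.1 and 20 CPM in WT control (interaction 1.11 ± 0.17). WT Wy was the lowest group, and its libraries overlapped no other. The summed level of the 11 markers was 119 to 147 CPM in KO Wy, 95.4 to 107 CPM in KO control, 49.0 to 52.1 CPM in WT Wy and 80.9 to 88.8 CPM in WT control. Timd4 had 1.34 ± 0.19 and Csf1r 1.09 ± 0.13. In bulk liver, fewer cells of a type and less RNA per cell cannot be told apart. Sinusoidal endothelium was higher in 4 of 9 members, stellate cells in 2 of 7, lymphocytes in 2 of 4 and infiltrating myeloid cells in 1 of 7, where 28.1% of all genes were called, with none lower in these lists and all 4 medians below 0 when scaled by library totals. The summed level of the 7 myeloid markers was 10.1 to 14.5 CPM in KO Wy, 9.84 to 10.5 CPM in KO control, 6.36 to 7.30 CPM in WT Wy and 9.84 to 13.5 CPM in WT control. The endothelial receptor Lyve1 was the 1 cell type marker called in KO, at 1.40 ± 0.24, where 0.239% of all genes were called. Cholangiocyte markers were lower in 1 of 5, and none of 4 erythroid markers was called, although their sum ran from 194 to 548 CPM in KO Wy, 132 to 347 CPM in KO control, 287 to 364 CPM in WT Wy and 177 to 235 CPM in WT control. Their part in the results for other genes was not tested.

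**Figure D3:**
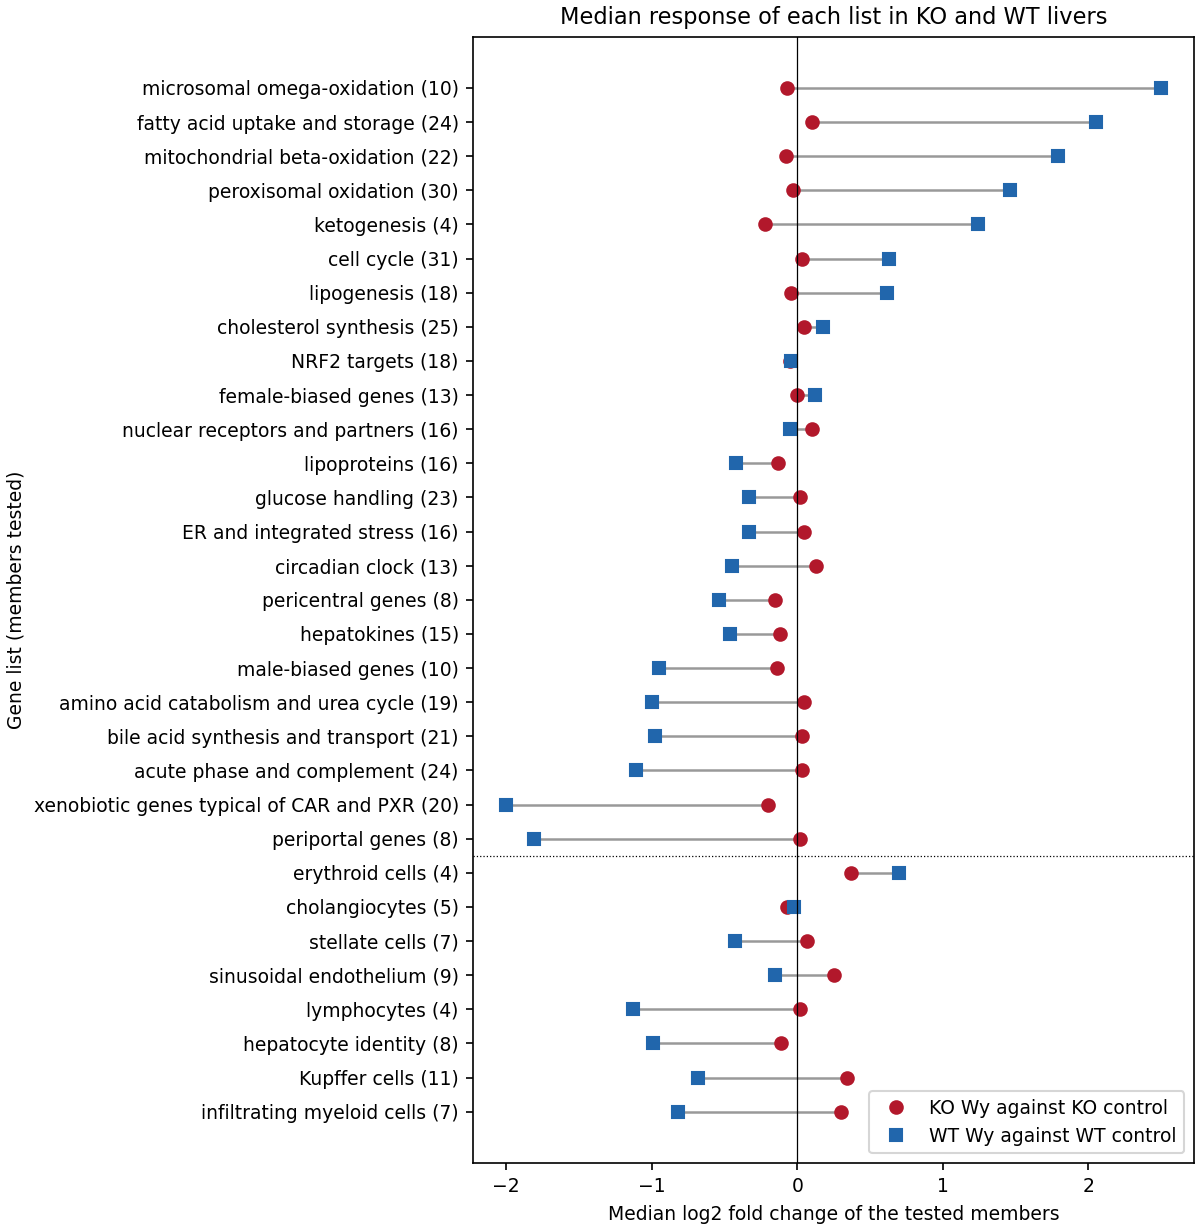
Median log2 fold change with Wy of each gene list with at least 4 tested members, as circles for KO and squares for WT, with pathway lists above the dotted line and cell type lists below it. The circles lie between -0.22 and 0.37, while the squares run from -2.00 for xenobiotic genes to 2.5 for omega-oxidation.

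Wy did change a small set of genes in KO livers. Of the 34 called, 27 were also called in WT, which is 79.4% of the KO calls and 0.484% of the WT calls. Of all genes tested, 39.2% were called in WT. The KO and WT contrasts share no libraries, but they share 1 fit with its estimate of spread, filter and scaling. Their calls are therefore not independent, and the 39.2% is not an independent baseline. Without WT control 3 the KO calls fell to 18. The other 7 of the 34 were not called in WT. Of the 27, 24 moved the same way in both genotypes and 3 moved opposite ways. The count of 34 depended on the fit. With the 12 libraries alone in the model 399 genes were called in KO, the 34 included, and with the Wald test of DESeq2 284 were called, 33 of the 34 included. Leaving out 1 library left 4 to 45 calls, with 5 without KO control 1, 4 without KO control 2 and 10 without KO Wy 1. At an unadjusted p under 0.05 there were 1998 genes.

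Insig2, which holds the sterol sensor SCAP in the endoplasmic reticulum (chromosome 1, 121304353 to 121332985), stood at 50.2, 43.0 and 54.3 CPM in KO Wy, 18.6, 20.4 and 27.1 CPM in KO control, 66.2, 64.4 and 70.5 CPM in WT Wy, and 31.5, 28.4 and 27.7 CPM in WT control. Wy lay above control in both genotypes with no overlap. In KO this separation was a condition for naming genes by their change there. The response was 1.16 ± 0.12 in KO (SE, adjusted p = 0.00025) and 1.2 ± 0.12 in WT (adjusted p = 2.4e-07). The interaction was -0.04 ± 0.17 (adjusted p = 0.89), and over the 20 alternatives, library totals among them, it ran from -1.23 to 0.14. Dio1, the deiodinase that activates thyroid hormone, stood at 21.6, 20.7 and 25.4 CPM in KO Wy, 9.74, 10.7 and 8.49 CPM in KO control, 55.2, 54.9 and 51.7 CPM in WT Wy, and 31.7, 30.2 and 26.3 CPM in WT control. It rose by 1.23 ± 0.16 in KO (adjusted p = 0.003) and 0.88 ± 0.16 in WT (interaction 0.35 ± 0.22, adjusted p = 0.25). The persulfide dioxygenase Ethe1 changed by -0.68 ± 0.09 in KO and -1.11 ± 0.09 in WT, with an interaction of 0.43 ± 0.13 (adjusted p = 0.02) that did not hold when KO Wy 3, KO control 2, WT Wy 2, WT Wy 3 or WT control 2 was left out, with adjusted p up to 0.076. In KO the calls of Insig2, Dio1, Ethe1 and Tymp were kept whichever of the 12 libraries was left out, and those of the other 30 genes were lost without at least 1.

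Tcea3, an elongation factor, stood at 14.4, 16.6 and 16.6 CPM in KO Wy, 23.4, 30.8 and 25.1 CPM in KO control, 10.8, 11.6 and 11.6 CPM in WT Wy, and 17.7, 17.5 and 18.9 CPM in WT control. It changed by -0.74 ± 0.11 in KO and -0.67 ± 0.11 in WT (interaction -0.07 ± 0.16), and the KO call was lost without KO control 2 or KO Wy 1, with adjusted p up to 0.069. Agxt, which clears glyoxylate, changed by -0.64 ± 0.11 in KO and -1.00 ± 0.11 in WT (interaction 0.36 ± 0.15), and the KO call was lost without KO control 1 or 2 or KO Wy 1. The oncogene Myc, chosen after its values were seen, stood at 3.00, 3.62 and 2.14 CPM in KO Wy, 1.29, 0.709 and 0.875 CPM in KO control, 3.45, 2.46 and 3.11 CPM in WT Wy, and 1.18, 1.81 and 0.904 CPM in WT control. Wy lay above control in both genotypes (1.60 ± 0.30 in KO, 1.21 ± 0.29 in WT, interaction 0.39 ± 0.42), and the KO call was lost without KO control 1, 2 or 3 or KO Wy 1 or 2.

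Tymp, thymidine phosphorylase (chromosome 15, 89371931 to 89377039), moved opposite ways. It stood at 8.78, 11.7 and 10.4 CPM in KO Wy, 19.5, 15.9 and 19.9 CPM in KO control, 40.2, 43.0 and 40.5 CPM in WT Wy, and 19.3, 17.8 and 18.8 CPM in WT control. Wy lay below control in KO and above it in WT, from control levels that overlapped between the genotypes (-0.84 ± 0.12 in KO, adjusted p = 0.0039; 1.15 ± 0.12 in WT; interaction -1.99 ± 0.16, adjusted p = 4.6e-08). The glycine cleavage enzyme Gldc rose by 0.60 ± 0.12 in KO and fell by 0.79 ± 0.12 in WT (interaction 1.39 ± 0.17), and the hexokinase Hk3 rose by 0.94 ± 0.15 in KO and fell by 0.81 ± 0.17 in WT (interaction 1.75 ± 0.22). The KO call of Gldc was lost without any library but WT control 2 or KO control 3, and that of Hk3 without KO control 1 or 2. Serpina3g, a serpin of immune cells and of the acute phase family, stood at 11.0, 9.44 and 26.2 CPM in KO Wy, 35.3, 46.4 and 52.5 CPM in KO control, 48.3, 41.7 and 48.6 CPM in WT Wy, and 35.7, 47.4 and 51.2 CPM in WT control. KO Wy alone was low (-1.53 ± 0.29 in KO, adjusted p = 0.033; 0.05 ± 0.28 in WT, adjusted p = 0.92; interaction -1.57 ± 0.41, adjusted p = 0.0075). Its KO call was lost without 9 of the 12 libraries in turn, with adjusted p up to 0.15, while its log2 change stayed between -2.13 and -1.27 under all alternatives.

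**Figure D4:**
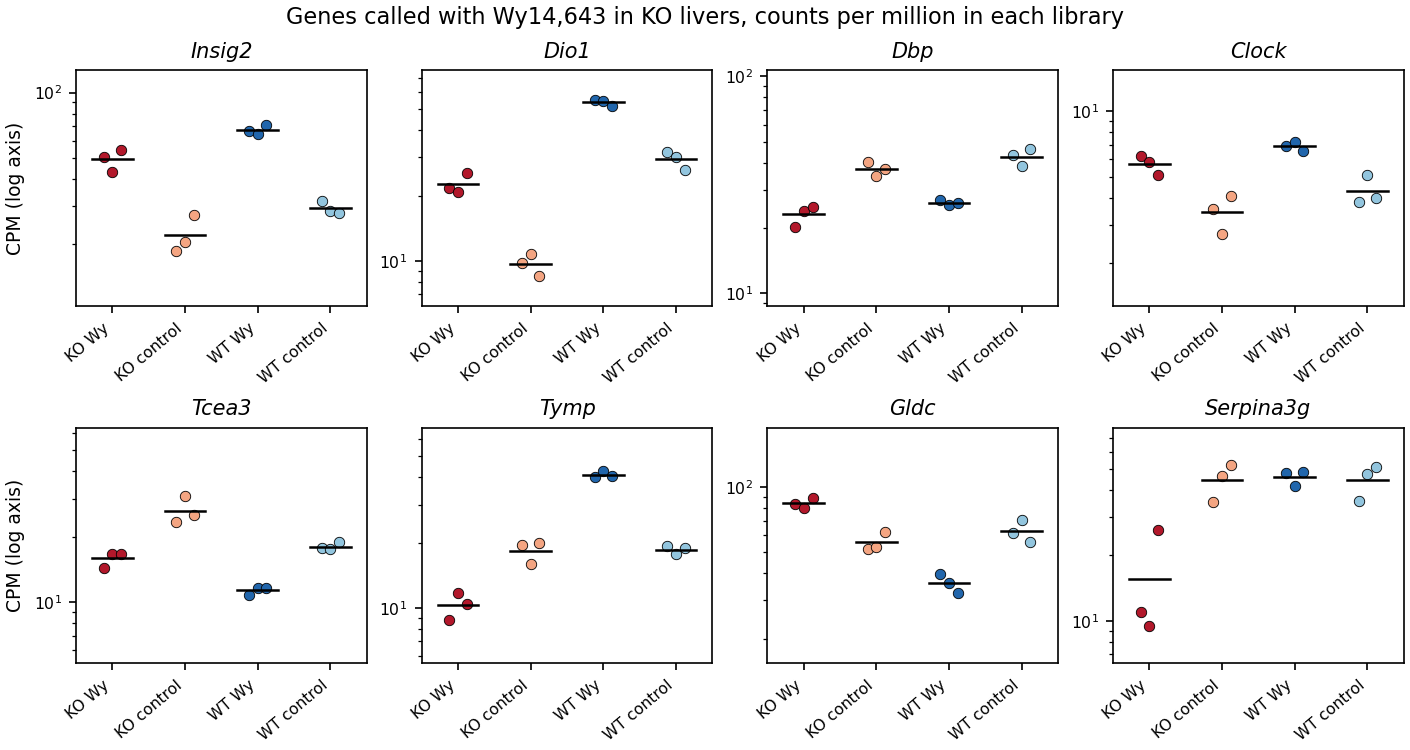
CPM (log axis) of 8 genes called with Wy in KO livers, in each of the 3 libraries of KO Wy, KO control, WT Wy and WT control, with a bar at the group mean. Insig2 and Dio1 lie higher with Wy in both genotypes, Dbp and Tcea3 lower in both, and Tymp lies lower in KO (8.78, 11.7 and 10.4 CPM) but higher in WT (40.2, 43.0 and 40.5 CPM).

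Of the 13 circadian clock genes tested 4 had a higher and none a lower interaction (30.8%, against 28.1% over all genes; median 0.39, and -0.76 scaled by library totals). The output factor Dbp stood at 20.2, 24 and 25.1 CPM in KO Wy, 40.2, 34.7 and 37.4 CPM in KO control, 26.9, 25.5 and 26.1 CPM in WT Wy, and 43.2, 38.6 and 46.1 CPM in WT control. It changed by -0.70 ± 0.13 in KO (adjusted p = 0.033) and -0.71 ± 0.13 in WT, and its interaction was 0.01 ± 0.19 (adjusted p = 0.98). The activator Clock rose by 0.73 ± 0.15 in KO (adjusted p = 0.045) and 0.69 ± 0.15 in WT, with an interaction of 0.04 ± 0.21. In KO the call of Dbp was lost without 10 and that of Clock without 8 of the 12 libraries in turn, with adjusted p up to 0.16 and 0.19. The repressor Nr1d1 had fitted changes of -0.93 ± 0.23 in KO (adjusted p = 0.084) and -0.75 ± 0.23 in WT, and an interaction of -0.17 ± 0.32.

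The repressor Cry1 stood at 9.19, 5.72 and 8.55 CPM in KO Wy, 3.64, 4.77 and 4.40 CPM in KO control, 1.27, 1.39 and 1.72 CPM in WT Wy, and 2.93, 3.16 and 3.07 CPM in WT control. All KO Wy libraries lay above KO control, all WT Wy libraries lay below WT control, and the interaction was 1.94 ± 0.27 (adjusted p = 2.7e-05; 0.88 ± 0.18 and adjusted p = 0.050 in KO). Arntl, the partner of Clock, stood at 2.24, 0.931 and 1.37 CPM in KO Wy, 0.256, 0.329 and 0.793 CPM in KO control, 0.219, 0.144 and 0.192 CPM in WT Wy, and 0.325, 0.400 and 0.209 CPM in WT control (interaction 2.48 ± 0.60, adjusted p = 0.0045). The other two called were Nfil3 at 1.04 ± 0.30 and Tef at 0.44 ± 0.14. The call of Nfil3 was lost without KO Wy 1, and that of Tef without 8 of the 12 libraries in turn, with adjusted p up to 0.13. The hour at which livers were taken is not given in the sources used here, and its part in these values was not tested.

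**Figure D5:**
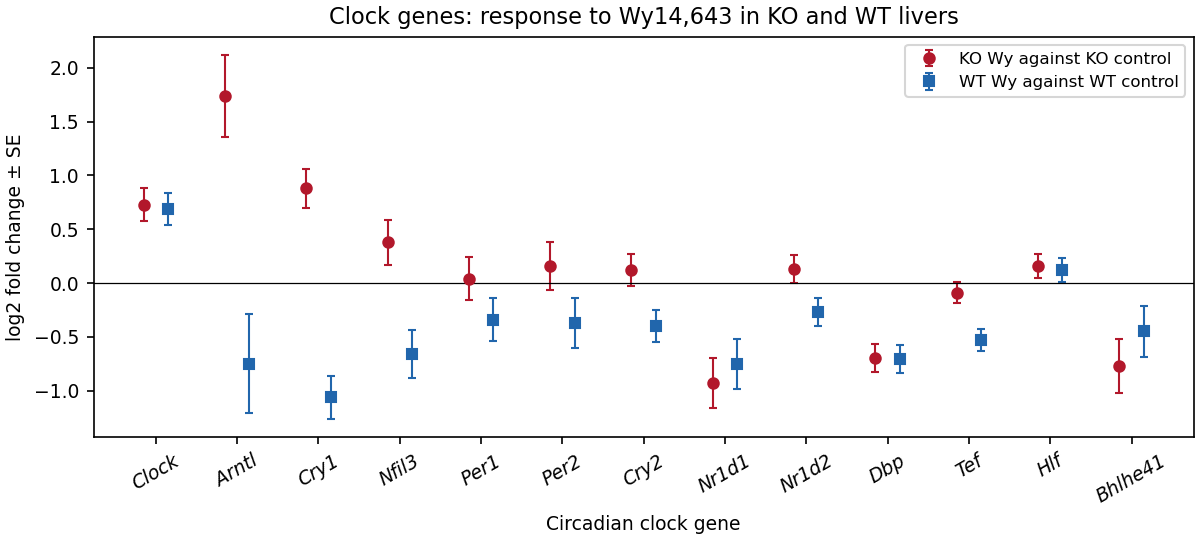
Log2 fold change with Wy of 13 clock genes in KO (circles) and WT (squares), with bars of 1 SE on either side. Clock, Nr1d1 and Dbp lie at like values in both genotypes, while Arntl, Cry1 and Nfil3 lie above 0 in KO and below 0 in WT.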

How the data were processed

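Liver RNA was sequenced from stranded TruSeq libraries of polyadenylated RNA, per the labels' protocols. The submitters' processing notes name the mm10 build and the tools TopHat2 2.0.8, Picard 1.84, Trimmomatic 0.30 and bcl2fastq 2.17. The deposited files hold raw read counts per gene locus, per the file headers, while neither the counting tool nor its strand setting is stated there. Depth was 74.5 to 150.7 M counts per library. Left out were 12 blank or total rows and 5 further columns of reads given with WT fenofibrate 1. Of loci lying inside another locus, 95.0% had 0 counts throughout, against 26.1% of the others, and those at 0 were taken as not measured.

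All 18 libraries of 6 groups were fitted in 1 quasi-likelihood model of edgeR 4.0.16 (R 4.3.3, limma 3.58.1), with filterByExpr, TMM scaling, 12 residual degrees of freedom, a prior count of 0.125 and no block. The 6 fenofibrate libraries are in none of the contrasts, but they enter the filter, the scaling and the estimate of spread. The F-test was adjusted by Benjamini-Hochberg over 14241 genes at 0.05, for 3 contrasts, and each SE was the absolute log2 value divided by the root of its F statistic. No p over a gene list was computed.

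The 20 alternatives were DESeq2 size factors, library totals, no Mup loci, no filter, DESeq2 1.42.0, 12 libraries, a replicate block, a test against 1.5-fold, and each library left out. The script was tested on simulated data. The groups compared, the lists and the members were chosen with earlier results of these data known. Named genes were the 15 most negative and 15 most positive called interactions with at least 5 CPM in a group, leaving out predicted gene models, the largest changes within KO or in both genotypes, up to 4 members per list by interaction p, and a fixed set. The rule for changes within KO took only called genes whose KO Wy and KO control libraries did not overlap. Their separation in KO was therefore fixed by the choice. The text names a part of the genes chosen and some further list members. Some named genes are not reported here.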

Additional observations from a re-analysis of the deposited data

Results flagged for a closer look

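By the test of the difference between the responses of KO and WT livers, 4001 genes were marked for a closer look, and the largest stand in the results above. Within them, 3 genes were called with Wy in opposite directions in the 2 genotypes. They were Tymp, with an interaction of -1.99, Gldc, with 1.39, and Hk3, with 1.75. All 3 interactions were called by edgeR's quasi-likelihood test when any 1 of the 12 libraries was left out. Scaled by library totals the interaction was 0.22 for Gldc (adjusted p = 0.31) and 0.58 for Hk3 (adjusted p = 0.097), and neither was called. With 3 libraries in each group, single libraries were not tested for standing apart.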

How the results depend on the processing

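Of the 124 named genes the interaction kept its direction and its side of the threshold in all 124 with DESeq2 size factors, the Wald test of DESeq2 or the replicate block, in 123 without Mup loci or with 12 libraries, in 122 with no filter, in 109 against 1.5-fold and in 88 with library totals. Without 1 library the interaction was called for 3274 to 3857 genes, 1408 to 1873 higher and 1666 to 1991 lower, the KO response for 2 to 27 genes higher and 2 to 18 lower, and the WT response for 2429 to 2928 higher and 1959 to 2726 lower. Scaling by library totals, where the Mup share enters each fold, gave 10063 interactions (203 higher, 9860 lower), 2956 genes lower in KO, and 9700 higher and 456 lower in WT. It turned the interaction of Phyh to -0.47, Alb -0.46, Hnf4a -1.14, Clec4f -0.07, Csf1r -0.07, Dbp -1.15, Clock -1.11, Nfil3 -0.14, Tef -0.71, Dio1 -0.83, Agxt -0.80, Ethe1 -0.73 and Mcm10 -0.11. It ended the calls of Apoc3 (0.01), Cyp27a1 (0.06), Slco1b2 (0.06), Ahsg (0.08), Igf1 (0.10), Fetub (0.10), Timd4 (0.19), Gldc (0.22), Pklr (0.39), Serpina1a (0.40), Gsta4 (0.43), Cyp3a11 (0.47), Hk3 (0.58) and Arntl (1.29), and brought 9 others past the threshold, all lower. Against 1.5-fold 1153 interactions were called (555 higher, 598 lower), 0 and 0 genes in KO, where edgeR had 1998 genes at an unadjusted p under 0.05 against no change, and 904 higher and 803 lower in WT. In KO, 43 genes were higher and 30 lower with no filter, 133 and 151 with the Wald test, and 220 and 179 with 12 libraries, and the cause was not tested. In their deviations from group means, same-numbered libraries correlated at -0.151 to 0.149 over 18 pairs (median 0.00664, against -0.00828 for other pairs). A correlation over all genes cannot exclude a shared batch that moved only part of the genes. With the replicate block 1917 interactions were higher and 1957 lower, with 22 and 16 genes in KO and 2849 and 2691 in WT, and 27 of the 34 KO calls were kept (Gldc and Clock were not). With 3 pools in each group, small responses in KO may not have been detectable.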
